A study of Danio rerio with 4 samples.

Results

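The Hox cluster genes of zebrafish were compared between whole embryos given a morpholino against srsf5a and embryos given a control morpholino. A morpholino is a synthetic antisense oligomer that blocks translation or splicing of the RNA it pairs with, and srsf5a is the gene of an SR-family splicing factor. Members were all genes of the count files whose symbol begins with hox, then a, b, c or d, then a number, with case ignored. This gave 38 genes among the 32379 listed, and all 38 passed the filter on low counts, as did 19917 genes in all. By cluster there were 5 HoxA, 15 HoxB, 11 HoxC and 7 HoxD genes. A further 10 Hox identifiers of the name table were not among the 32379 genes listed, so the HoxA cluster in particular is held only in part. A symbol was given for 20603 of the listed genes, so a Hox gene without one would be missed.

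Both groups were AB-strain embryos that received 3 ng of morpholino as 1-cell eggs, were sorted by rhodamine dextran and were raised to 48 hours post fertilization (hpf). Each group, labelled sMOsrsf5a and CtrlMO, had 2 libraries. Libraries were made from RNA of 80 pooled embryos per condition, and the labels do not state if each library had its own pool. The p-values therefore measure the spread between these libraries, which may be technical.

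Hox genes encode homeodomain transcription factors that give positional identity along the head-to-tail axis. They lie in clusters, and a gene's place in its cluster, numbered as paralog groups 1 to 13, follows the order in which the genes are expressed from the hindbrain to the tail. In the embryo they act in the hindbrain, pharyngeal arches, spinal cord, trunk mesoderm and fins, together with Pbx and Meis cofactors, and retinoic acid and Cdx factors switch them on early in development. Many zebrafish Hox genes exist as duplicates marked a and b. The name table gives 26 of the 38 genes in human-style capitals without that letter, and these names are kept here, so HOXB3 is a zebrafish gene. The symbol HOXB5 stands for 2 identifiers, which are given separately.

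The libraries held 22739821 and 23950082 gene counts with the srsf5a morpholino and 15139525 and 36240893 with the control morpholino. Values are in CPM, gene counts scaled to library totals that edgeR's TMM factors adjust. They are not divided by transcript length, so levels are compared between libraries and not between genes. The targeted gene, srsf5a, stood at 335 and 368 CPM in srsf5a-morpholino libraries and at 335 and 286 CPM in control libraries (log2 fold change 0.18 ± 0.11 SE, adjusted p = 0.424 in edgeR), which does not measure a block of splicing. Over all genes, 395 passed a Benjamini-Hochberg adjusted p of 0.05, or 1.98% of those tested. Leaving out srsf5a-morpholino replicate 1 or 2 gave 1156 or 1408 calls, and leaving out control replicate 1 or 2 gave 175 or 33.

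Most Hox genes stood slightly lower in srsf5a-morpholino embryos, and none passed the test on its own. The log2 fold change, srsf5a morpholino over control, was below 0 for 34 of 38 Hox genes (89.5%), against 49.9% of all tested genes. Its median over the Hox genes was -0.18, a ratio of 0.882, where the median of all tested genes was 0.00. Single values lay between -0.91 for HOXB13 and 0.48 for hoxb1a, with standard errors of 0.10 to 0.32. No test of the list as a whole was made.

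In edgeR's quasi-likelihood test 0 of 38 Hox genes had an adjusted p under 0.05, where 0.768% of all tested genes were called lower and 1.22% higher. The smallest adjusted p among them was 0.0957, for HOXC12. At an unadjusted p under 0.05, 7 Hox genes were lower and 0 higher, against 10.1% and 10.5% of all tested genes. The 7 were HOXB3, HOXC4, HOXB5 (ENSDARG00000013057), hoxb6b, HOXC12, HOXB13 and HOXC13. DESeq2's Wald test called 1 Hox gene, HOXB3 (adjusted p = 0.0406), while it called 2.92% of all genes lower. HOXB3 alone among the Hox genes passed in the authors' deposited table too (adjusted p = 0.0391), where 2.99% of all genes were called lower.

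Library by library, 22 of the 38 Hox genes (57.9%) had both srsf5a-morpholino values below both control values, as did 26.3% of all tested genes. Only hoxb1a had both srsf5a-morpholino values above both controls, where 26.1% of all tested genes did. In the remaining 15 Hox genes the groups overlapped. Relative to the mean of the controls, the median Hox gene stood at -0.24 in srsf5a-morpholino replicate 1 and -0.14 in replicate 2 on the log2(CPM + 0.5) scale, and at 0.01 and -0.01 in control replicates 1 and 2. Below the control mean were 34 Hox genes in srsf5a-morpholino replicate 1 and 30 in replicate 2, against 9828 and 9937 of all 19917 tested genes. Replicate 1 stood below replicate 2 in 28 of the 38 genes in the srsf5a-morpholino group and in 17 in the control group. The size of the shift thus differed between the 2 treated libraries.

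**Figure D1:**
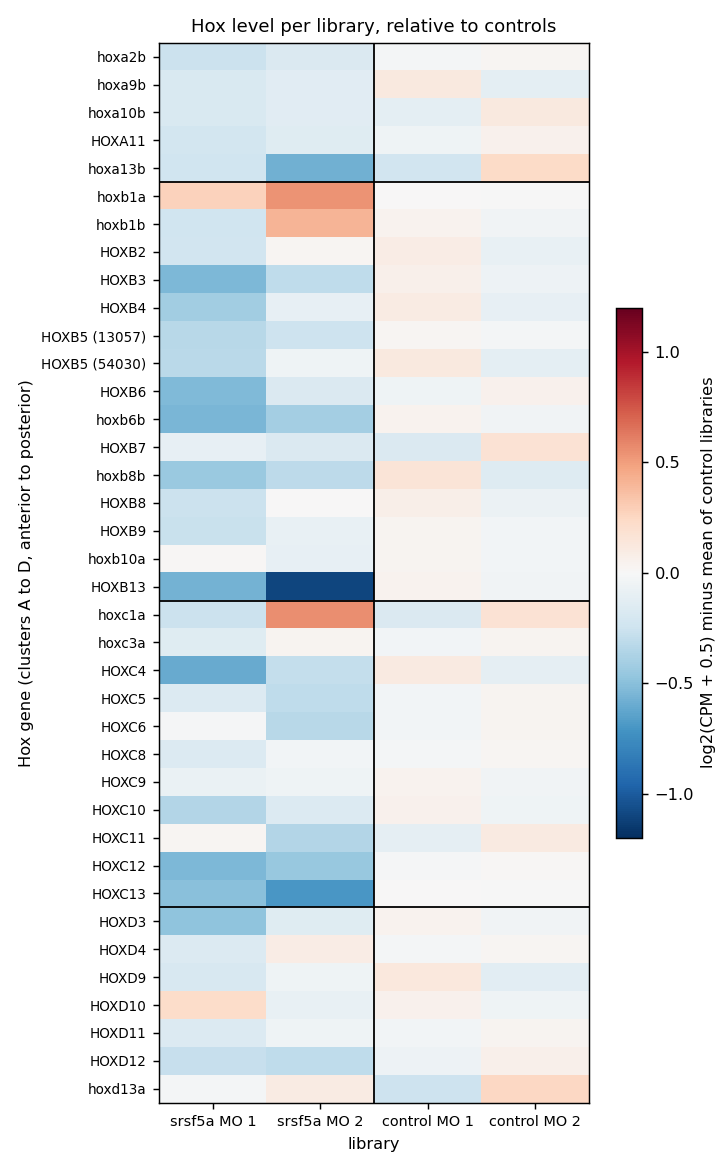
Level of each of the 38 Hox genes (rows, clusters A to D from top to bottom, anterior to posterior within each) in every library (columns, srsf5a morpholino left of control), as log2(CPM + 0.5) minus the mean of the control libraries. Blue fields, below the controls, fill most of both srsf5a-morpholino columns, with hoxb1a the gene above the controls in both of them.

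Summed over the 38 genes, Hox reads made up 558 and 629 CPM in srsf5a-morpholino libraries and 707 and 678 CPM in control libraries. Both srsf5a-morpholino sums lay below both control sums. HOXB3 supplied 15.1% and 15.8% of these reads in srsf5a-morpholino libraries and 18.1% and 17.4% in control libraries. Without it the sums were 473 and 530 CPM in srsf5a-morpholino libraries and 579 and 561 CPM in control libraries, still apart. In whole embryos, fewer cells that express a gene and less RNA per cell cannot be told apart.

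The median log2 fold change by cluster was -0.20 in HoxA (5 genes), -0.18 in HoxB (15), -0.18 in HoxC (11) and -0.12 in HoxD (7). All 5 HoxA genes had both srsf5a-morpholino values below both controls, as did 7 of 15 HoxB, 7 of 11 HoxC and 3 of 7 HoxD genes. Of all tested genes 26.3% did. HoxB held both ends of the range, hoxb1a and HOXB13. These medians depended on single libraries. Leaving out srsf5a-morpholino replicate 1 put them at -0.15 in HoxA, -0.10 in HoxB, -0.29 in HoxC and -0.06 in HoxD. Leaving out replicate 2 of that group put HoxB at -0.33 and HoxD at -0.19, and leaving out control replicate 2 put HoxB at -0.30.

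Along the axis, the members of paralog group 1 had values above 0, and groups 12 and 13 had the lowest group medians (-0.42 and -0.58) with all 4 libraries. Without srsf5a-morpholino replicate 2, groups 3 (-0.49) and 6 (-0.57) lay below both of them (-0.44 each). Medians were -0.08 for the anterior groups 1 to 3 (8 genes), -0.25 for the central groups 4 to 8 (13 genes) and -0.18 for the posterior groups 9 to 13 (17 genes). The anterior median was 0.03 without srsf5a-morpholino replicate 1, and without replicate 2 it was -0.26, below the posterior median of -0.21, so the order of the regions is not fixed. Across the 38 genes the log2 fold change and the paralog group number had a Pearson correlation of -0.43. Without groups 1 and 13 it was 0.10 over 31 genes, so the slope rested on the ends of the clusters. The correlation with the log2 of mean CPM was 0.02. These are descriptions over genes that share the same 4 libraries, not independent replicates.

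**Figure D2:**
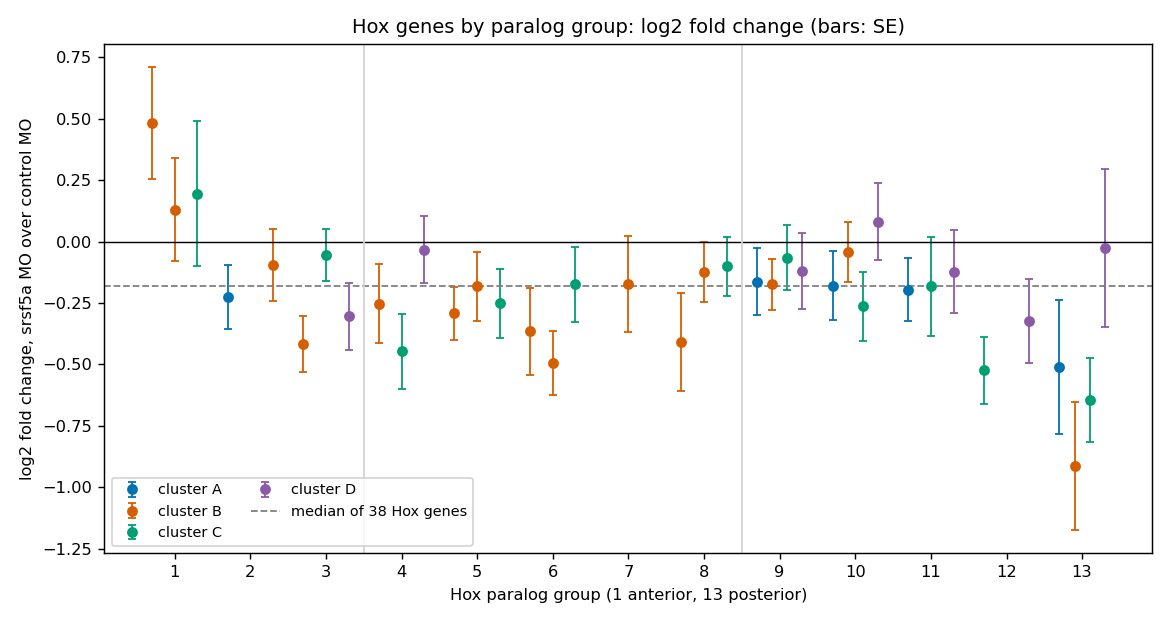
Log2 fold change (srsf5a morpholino over control) of 38 Hox genes against paralog group, 1 anterior to 13 posterior, coloured by cluster. Bars are standard errors derived from edgeR's F statistic, and the dashed line is the Hox median of -0.18. The 3 genes of group 1 lie above 0, groups 2 to 12 lie mostly between -0.5 and 0, and 3 of the 4 genes of group 13 lie below -0.5.

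Paralog group 1 acts in the early hindbrain. hoxb1a, which gives identity to a hindbrain segment and its facial motor neurons in zebrafish, had 3.42 and 4.20 CPM in srsf5a-morpholino libraries and 2.74 and 2.73 CPM in control libraries. Both srsf5a-morpholino values were above both controls, on 79 and 99 reads against 41 and 100 reads, and the difference did not pass (0.48 ± 0.23, adjusted p = 0.289). hoxb1b, which patterns the hindbrain during gastrulation, had 15.7 and 24.9 CPM in srsf5a-morpholino libraries and 19.2 and 18.1 CPM in control libraries. One treated library lay below both controls and the other above both. Likewise hoxc1a had 5.07 and 9.30 CPM in srsf5a-morpholino libraries and 5.41 and 7.00 CPM in control libraries. Their values of 0.13 ± 0.21 for hoxb1b and 0.19 ± 0.29 for hoxc1a turned to -0.25 and -0.31 without srsf5a-morpholino replicate 2, while hoxb1a stayed at 0.32.

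Groups 2 and 3 pattern the hindbrain and the pharyngeal arches. hoxa2b, which gives the second arch its identity, had 10.2 and 10.8 CPM in srsf5a-morpholino libraries and 12.1 and 12.5 CPM in control libraries (-0.23 ± 0.13, adjusted p = 0.380 in edgeR). HOXB2 overlapped between groups (-0.10). HOXB3, a gene of the caudal hindbrain, had 84.4 and 99.6 CPM in srsf5a-morpholino libraries and 128 and 118 CPM in control libraries. Its 2 groups did not overlap, the ratio was 0.749 and the log2 fold change -0.42 ± 0.11, with an adjusted p of 0.102 in edgeR. That p was 0.0128 without srsf5a-morpholino replicate 2 (-0.55), when 3.46% of all genes were called lower.

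The other group 3 genes were HOXD3 and hoxc3a. HOXD3 had 24.4 and 30.9 CPM in srsf5a-morpholino libraries and 35.4 and 33.2 CPM in control libraries (-0.31). hoxc3a had 37.3 and 42.3 CPM in srsf5a-morpholino libraries and 40.5 and 42.2 CPM in control libraries (-0.06), overlapping values. Some of these genes have long models. In RefSeq's GRCz12tu annotation hoxb3a spans hoxb4a, hoxb5a and hoxb6a, hoxc3a spans or meets 5 other HoxC genes, hoxd3a overlaps hoxd4a, and hoxb1b overlaps hoxb5b and hoxb6b. Reads that could not be given to a single gene were listed apart as ambiguous, at 0.443% to 0.531% of listed reads. Whether the gene models used for counting overlap in the same way is not given in the sources used. The separate values of these genes are therefore uncertain.

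All 13 genes of the central groups 4 to 8, which act in the caudal hindbrain, spinal cord and trunk, had log2 fold changes below 0, between -0.50 and -0.03. In 7 of them both srsf5a-morpholino values lay below both controls, against 26.3% of all tested genes. HOXC4 had 14.4 and 18.0 CPM in srsf5a-morpholino libraries and 24.0 and 20.5 CPM in control libraries (-0.45 ± 0.15, adjusted p = 0.164). Its log2 fold change lay between -0.62 and -0.29 with 1 library left out. HOXB4 (-0.25) and HOXD4 (-0.03) overlapped between groups.

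The 2 genes listed as HOXB5 had similar values. ENSDARG00000013057 stood at 22.5 and 23.9 CPM in srsf5a-morpholino libraries and at 28.9 and 28.0 CPM in control libraries (-0.29 ± 0.11). ENSDARG00000054030 stood at 23.5 and 28.3 CPM in srsf5a-morpholino libraries and at 31.8 and 27.1 CPM in control libraries (-0.18 ± 0.14), where the groups overlapped. HOXC5 had a log2 fold change of -0.25.

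In group 6, hoxb6b was the lowest of the central genes. It had 10.2 and 11.2 CPM in srsf5a-morpholino libraries and 15.6 and 14.7 CPM in control libraries, a ratio of 0.710 (-0.50 ± 0.13, adjusted p = 0.0981 in edgeR). Both treated values lay well below both controls, on 234 to 538 reads a library. HOXB6, named without its letter, had a log2 fold change of -0.37 with groups apart, and HOXC6 one of -0.17 with overlap. Among groups 7 and 8, hoxb8b had a value of -0.41, HOXB7 -0.17, HOXB8 -0.12 and HOXC8 -0.10. HOXB8 had 36.8 and 44.3 CPM in srsf5a-morpholino libraries and 46.6 and 42.0 CPM in control libraries, an overlap.

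Groups 9 to 11, which in mouse pattern the thoracic to sacral axis, had group medians of -0.14, -0.11 and -0.18, and 10 of their 11 genes lay below 0. In 3, 2 and 2 genes of groups 9, 10 and 11 both srsf5a-morpholino values lay below both controls, against 26.3% of all tested genes. HOXB9 had 44.8 and 50.8 CPM in srsf5a-morpholino libraries and 55.1 and 52.8 CPM in control libraries (-0.17 ± 0.10), without overlap. hoxb10a had 15.3 and 14.1 CPM in srsf5a-morpholino libraries and 15.5 and 14.8 CPM in control libraries (-0.04 ± 0.12). HOXD10 was the only posterior gene above 0, with 13.5 and 10.8 CPM in srsf5a-morpholino libraries and 11.9 and 11.1 CPM in control libraries. Its log2 fold change of 0.08 turned to -0.09 without srsf5a-morpholino replicate 1. The other 8 genes of these groups lay between -0.26 for HOXC10 and -0.07 for HOXC9, with adjusted p of 0.340 or more in edgeR.

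Groups 12 and 13 mark the end of the body axis and the outer parts of the fins. HOXC12 had 7.98 and 8.49 CPM in srsf5a-morpholino libraries and 11.7 and 12.0 CPM in control libraries. The treated pair lay close together and below both controls, at a ratio of 0.695 (-0.52 ± 0.14, adjusted p = 0.0957 in edgeR). HOXD12 had 5.16 and 5.05 CPM in srsf5a-morpholino libraries and 6.07 and 6.65 CPM in control libraries (-0.32 ± 0.17), also apart.

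The lowest values of all Hox genes were those of HOXB13 and HOXC13. HOXB13 had 3.29 and 2.12 CPM in srsf5a-morpholino libraries and 5.27 and 4.96 CPM in control libraries, on 76 and 50 reads against 79 and 182 reads. Its ratio was 0.531 (-0.91 ± 0.26, adjusted p = 0.113 in edgeR). The gene passed only without srsf5a-morpholino replicate 1 (-1.26, adjusted p = 0.0287, when 2.57% of all genes were called lower) and, among the other alternatives, with the replicate number as a block (-0.95, adjusted p = 0.0361, when 3.60% were called lower). HOXC13 had 5.20 and 4.50 CPM in srsf5a-morpholino libraries and 7.61 and 7.58 CPM in control libraries, a ratio of 0.639 (-0.65 ± 0.17, adjusted p = 0.0993 in edgeR). Both genes had treated values below both controls.

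The other group 13 genes, needed for fin rays in zebrafish, had few reads. hoxa13b had 3.03 and 2.29 CPM in srsf5a-morpholino libraries and 3.07 and 4.39 CPM in control libraries (-0.51 ± 0.27), with one treated value barely under the lower control. hoxd13a had 1.56 and 1.74 CPM in srsf5a-morpholino libraries and 1.27 and 1.99 CPM in control libraries, on 19 to 73 reads. Its value of -0.03 ± 0.32 gives no direction, since it was 0.38 without control replicate 2 and -0.27 without control replicate 1.

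**Figure D3:**
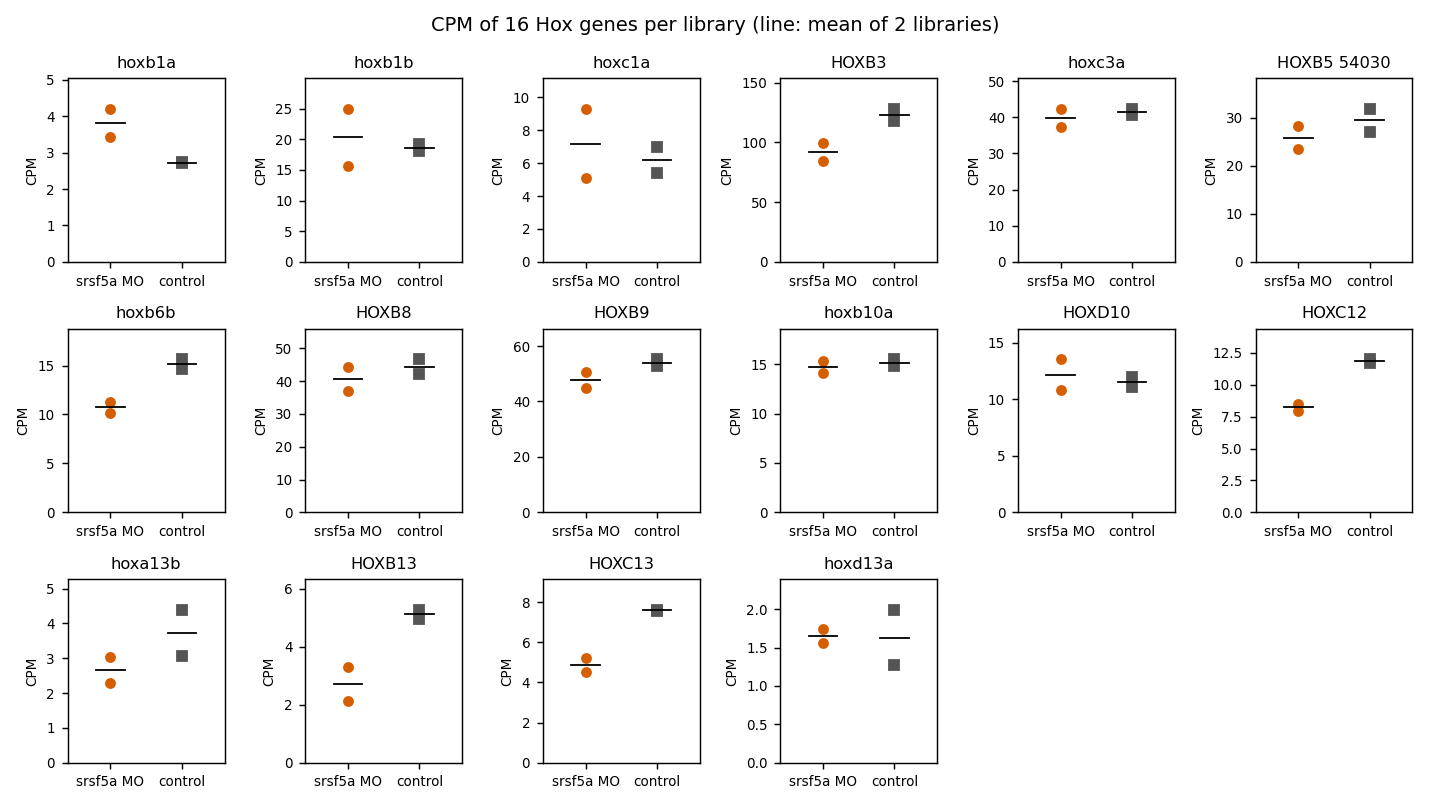
CPM of 16 Hox genes in every library (circles, srsf5a morpholino, left; squares, control, right; lines, means of 2 libraries), each on its own axis from 0, ordered by paralog group. HOXB3, hoxb6b, HOXC12, HOXB13 and HOXC13 have treated pairs clearly below the control pairs, while hoxb1b and hoxc1a have 1 treated library above and 1 below the controls.

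Cofactors and regulators of Hox genes gave 3 calls. Counts in this and the other lists stand beside 1.22% of all tested genes called higher, 0.768% called lower and 49.9% with a log2 fold change below 0. Among 9 tested genes of the TALE family, whose Pbx and Meis proteins bind DNA together with Hox proteins, 0 were higher and 1 lower, and 7 lay below 0 with a median of -0.29. meis2b fell to 151 and 170 CPM in srsf5a-morpholino libraries, against 240 and 242 CPM in control libraries (-0.58 ± 0.10, adjusted p = 0.0395 in edgeR). Leaving out either control ended the call (-0.59 without replicate 1, -0.58 without replicate 2). Of 27 Polycomb and trithorax genes, which keep Hox genes silent or active, 1 was higher and 1 lower, 22 lay below 0 and the median was -0.20. It was -0.10 without srsf5a-morpholino replicate 1 and -0.12 without control replicate 2. phc2b, a Polycomb subunit gene, fell to 55.9 and 60.3 CPM in srsf5a-morpholino libraries, against 97.9 and 94.4 CPM in control libraries (-0.73 ± 0.09). Its call too ended without either control (-0.70 without replicate 1, -0.75 without replicate 2). cbx7a, another Polycomb gene, rose to 32.0 and 22.6 CPM in srsf5a-morpholino libraries, against 2.27 and 2.34 CPM in control libraries.

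Of 23 tested genes for retinoic acid synthesis, breakdown, binding and receptors, with a receptor corepressor, none passed in edgeR and 13 lay below 0. Their median of -0.06 was 0.03 without srsf5a-morpholino replicate 1 and -0.16 without replicate 2. The 2 with most reads were the corepressor gene NCOR1 (-0.09) and a RARG gene, ENSDARG00000034117 (-0.23). Among 6 genes of the Cdx, Evx and ParaHox families none passed and all 6 lay below 0, with a median of -0.19 that leaving out 1 library put between -0.57 and -0.01. Only 2 of the 6, EVX2 and GSX1, had both treated values below both controls, where 26.3% of all tested genes did. The others overlapped between groups, with standard errors larger than their log2 fold changes. EVX2, a homeobox gene that borders the HoxD cluster, had 13.8 and 17.7 CPM in srsf5a-morpholino libraries and 22.1 and 25.2 CPM in control libraries (-0.59 ± 0.15, adjusted p = 0.0954 in edgeR), without overlap. GSX1 stood at -0.47, and cdx4 had at most 18 reads in a library. Among 14 tested regulators of Hox genes in hindbrain and tail none passed and 6 lay below 0. The median of 0.38 was 0.23 without srsf5a-morpholino replicate 2 and 0.24 without control replicate 2.

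Marker lists of the tissues that hold Hox cells, and of a region that lacks them, moved as follows. Some genes were shared between lists. Of 29 tested hindbrain and spinal cord neuron genes 0 were higher and 3 lower, 26 lay below 0 and the median was -0.39. Their summed level was 504 and 594 CPM in srsf5a-morpholino libraries and 726 and 775 CPM in control libraries. lhx1a, an interneuron gene, fell to 64.6 and 79.3 CPM, against 120 and 137 CPM in control libraries (-0.84 ± 0.13). Also lower were lhx5 (-0.73 ± 0.12) and ISL1 (-0.58 ± 0.10). Genes of the list found in motor neurons did not move alike. LHX3 stood at -0.70, CHAT at -0.07, MNX1 at -0.02 and mnx2b at 0.09, and none of these was called. All 3 calls ended without control replicate 2 (-0.73, -0.68 and -0.55), and those of lhx5 (-0.78) and ISL1 (-0.62) ended without control replicate 1.

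Of 20 forebrain and midbrain genes, regions without Hox expression, 0 were higher and 2 lower, 16 lay below 0 and the median was -0.37. The genes are not specific to these regions, as both DLX2 genes of the list were also in the fin list. Summed, they gave 330 and 388 CPM in srsf5a-morpholino libraries and 506 and 536 CPM in control libraries. OTX2 (-0.95 ± 0.12) and LHX2 (-0.79 ± 0.09) were the calls, and both ended without control replicate 2 (-0.88 and -0.80). The 2 brain lists had medians of -0.39 and -0.37 beside the Hox median of -0.18, and no test set them against each other.

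Among 23 tested genes of the fins and fin fold 0 were higher and 1 lower, 18 lay below 0 and the median was -0.26. Summed levels were 1197 and 1211 CPM in srsf5a-morpholino libraries and 1455 and 1501 CPM in control libraries. Much of these sums came from and1 and and2. and1 had 225.4 and 191.6 CPM in srsf5a-morpholino libraries and 314.5 and 280.9 CPM in control libraries. and2 had 294.5 and 281.2 CPM against 407.0 and 470.5 CPM. The sums thus follow these genes more than the list. In 13 of the 23 genes both treated values lay below both controls, and in 4 above, against 26.3% and 26.1% of all tested genes. The fin fold fibre gene and2 (-0.61 ± 0.11) was the call, which ended without either control (-0.71 without replicate 1, -0.50 without replicate 2). Somite, muscle and notochord genes gave 0 calls among 19, with 8 below 0. Their median of 0.03 lay between -0.03 and 0.06 with 1 library left out. Summed, they gave 11989 and 11645 CPM in srsf5a-morpholino libraries and 10246 and 10175 CPM in control libraries, with both treated sums above both controls. An ACTA1 gene (ENSDARG00000055618) supplied 5338 and 5150 CPM of the treated sums and 4186 and 4172 CPM of the control sums. The sums thus follow single genes more than the list. In 7 of the 19 genes both treated values lay above both controls, and in 6 below. The log2 fold change of that ACTA1 gene was 0.33 and that of myhz2 -0.14. The other ACTA1 gene, ENSDARG00000036371, stood at 1.08 ± 0.20 (adjusted p = 0.0519 in edgeR), the largest value of the list. The part that these tissues play in the Hox values was not tested.

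**Figure D4:**
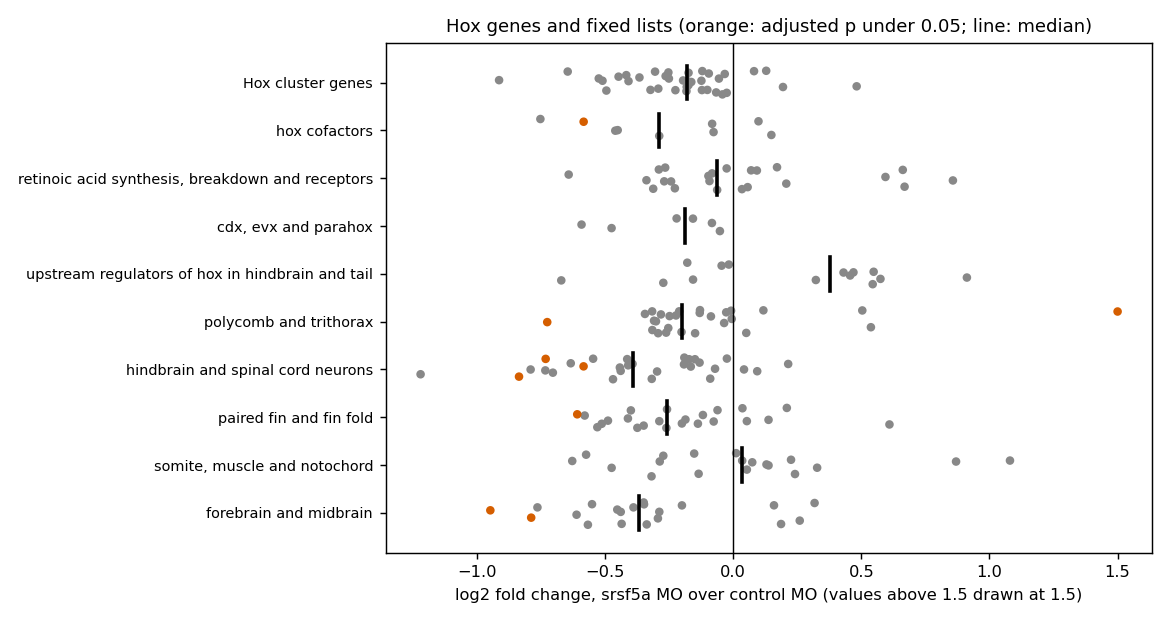
Log2 fold change (srsf5a morpholino over control, horizontal axis) of each gene in the Hox clusters and in 9 gene lists (rows), with adjusted p under 0.05 in orange, medians as lines and 1 gene, cbx7a, drawn at the 1.5 limit. The Hox median of -0.18 lies between those of the muscle list (0.03) and the hindbrain and spinal cord list (-0.39).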

How the data were processed

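RNA of 4 whole-embryo libraries was measured by sequencing. The Zv9 build and the tools HTSeq, TopHat, Picard and DESeq2 were used, per the submitters' processing notes. The sources used here give no versions, annotation release or strand setting. The deposited files hold raw read counts per Ensembl gene. The authors' deposited table holds a signal column (mean normalized count), log2 fold changes and their errors, a score (Wald statistic) and p-values. Its adjusted p-values and log2 values were used for the Hox genes and for the share of all genes called. An adjusted p was also taken from it for a DHRS3 gene, and its mean was checked against the counts. Reads in genes made up 53.0% to 57.2% of listed reads. Those with several alignments made up 29.0% to 34.2%, those in no gene 11.9% to 13.5% and ambiguous reads 0.443% to 0.531%. Rows other than genes were left out of totals. Against totals of 15139525 to 36240893, 3 counts are 0.0828 to 0.198 CPM, for counting error only.

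Counts of all genes were tested in edgeR 4.0.16 (R 4.3.3) after filterByExpr (minimum count 10 and minimum total 15) and TMM scaling (factors 0.984 to 1.01), by the quasi-likelihood test with morpholino group as the only term and Benjamini-Hochberg adjustment over 19917 genes. Adjusted p-values are from this fit unless another is named. Standard errors were derived from it, as the absolute log2 fold change divided by the square root of the test's F statistic. The common biological coefficient of variation was 12.9%. The procedure was also run on simulated counts with 200 genes changed 2-fold, the common dispersion for every gene and independent libraries. The outcome of that run is not reported here. With that setting it cannot show how shifts as small as the Hox median are recovered. Alternatives were another normalization, 2 other filters, DESeq2 1.42.0, leaving out each library and a replicate block.

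Hox members, gene lists and the naming rule were chosen with earlier results of these data known. Symbols came from a name table supplied with the data. List symbols were matched case-blind or, failing that, to capitals without the paralog letter; of 185 sought, 164 matched. Library values are given for Hox genes past the call, the 5 highest and 5 lowest log2 fold changes at 1 CPM or more, the 2 with most reads in groups 1-3, 4-8 and 9-13, and some others chosen after their values were seen (hoxa2b, HOXD3, HOXC4, HOXD12 and ENSDARG00000013057). From each list, calls or else the 1 or 2 genes with most reads are named. Others, such as and1 and ACTA1 (ENSDARG00000036371), were named after their values were seen. Some genes that this rule takes are not reported here.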

Additional observations from a re-analysis of the deposited data

How the results depend on the processing

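The Hox median of -0.18 was between -0.26 (without srsf5a-morpholino replicate 2) and -0.15 with 1 library left out, and -0.18 under the other normalization, both filters, DESeq2 and the replicate block. Over all genes 988 were called by DESeq2, 1582 with the replicate block, and 33 to 1408 with 1 library left out. Hox calls numbered 1 with DESeq2 (HOXB3), 1 with the replicate block (HOXB13) and 0 to 2 with 1 library left out. Hox genes below 0 numbered 30 to 34 of 38 in every alternative. With 1 library left out the lone library of its group is assumed to vary like the other group. Signs turned with 1 library left out, over ranges of -0.25 to 0.43 for hoxb1b, -0.31 to 0.56 for hoxc1a, -0.24 to 0.0347 for HOXB2, -0.15 to 0.0336 for hoxc3a, -0.17 to 0.0940 for HOXD4, -0.34 to 0.0415 for HOXB7, -0.27 to 0.00624 for HOXB8, -0.26 to 0.00764 for HOXD9, -0.0994 to 0.0128 for hoxb10a, -0.0874 to 0.23 for HOXD10, -0.40 to 0.000669 for HOXC11 and -0.27 to 0.38 for hoxd13a; hoxd13a also turned under the replicate block (0.00239). Same-numbered libraries deviated together (r = 0.46 over genes), but the labels do not say that a number marks a shared batch, so the pairing is a hint and the block an alternative. The causes of these changes were not tested. Depth limits the genes with few reads, such as hoxd13a with 19 to 73 reads a library.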

Other observations

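Among the retinoic acid genes, srsf5a-morpholino replicate 2 stood apart for CYP26A1, an enzyme that breaks down retinoic acid. CYP26A1 had 16.2 and 48.1 CPM in srsf5a-morpholino libraries and 16.9 and 18.5 CPM in control libraries (0.86 ± 0.43, adjusted p = 0.315 in edgeR). The same library held the highest values of hoxb1a, hoxb1b and hoxc1a, at 4.20, 24.9 and 9.30 CPM. Of the 2 genes listed as DHRS3, which encodes a retinaldehyde reductase, ENSDARG00000044803 had 21.3 and 29.7 CPM in srsf5a-morpholino libraries and 16.5 and 15.8 CPM in control libraries (0.66 ± 0.17, adjusted p = 0.0941 in edgeR). The other, ENSDARG00000044982, had 7.85 and 12.1 CPM in srsf5a-morpholino libraries and 6.07 and 6.46 CPM in control libraries (0.67 ± 0.23, adjusted p = 0.161 in edgeR). The retinoic acid synthesis genes RDH10 (ENSDARG00000012369) and ALDH1A2 also had both treated values above both controls (0.59 ± 0.15 and 0.17 ± 0.11). The other RDH10 gene (-0.10) and ALDH1A3 (-0.27) had both below, and the breakdown genes CYP26B1 (-0.03) and CYP26C1 (0.03) overlapped between groups. Among the 23 genes, 11 had both treated values below both controls and 4 above, against 26.3% and 26.1% of all tested genes. These genes were chosen after their values were seen, and none passed in edgeR. In the authors' deposited table DHRS3 (ENSDARG00000044803) had an adjusted p of 0.0347. A relation between these genes was not tested.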
